A study of Mus musculus with 20 samples.

Results

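Solute carrier (Slc) genes encode membrane proteins that move amino acids, sugars, nucleosides, ions, metals, lipids and vitamins across the plasma membrane and the membranes of organelles. The genes described here were those named Slc followed by a family number and letter in the authors' expression table, other than the glucose carriers Slc2a1 and Slc2a3 and the gene Slc44a4, which lies inside the region around Oct4 on chromosome 17 that was set aside. They came to 150 genes of 10334 named genes in that table, represented by 170 transcript models of 11767 named models. Each gene was followed through its model with the highest mean count, since the count files hold transcript models rather than whole genes.

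RNA was measured in 10 mouse libraries, 2 in each of 5 groups. Both kinds of iPS culture descended from neural progenitors with a Sox2-eGFP reporter (129SvJae x C57BL/6). The iPS 2i cells grew in serum-free 2i medium with LIF, CHIR99021 (an inhibitor of GSK3) and PD0325901 (an inhibitor of MEK). The iPS cells grew with fetal bovine serum, LIF and non-essential amino acids on inactivated embryonic fibroblast feeders and were then passaged onto gelatin to take the feeders away. The NPC group, the cell type from which the iPS cells were derived, was primary neural progenitor cells taken at postnatal day 1 from the whole brain of reporter pups of this cross, grown as neurospheres with EGF and FGF and then plated on poly-D-lysine and laminin. The ES 2i cells were the V6.5 line, a male embryonic stem cell line of the same 129SvJae x C57BL/6 cross, in 2i medium with LIF. The ES cells were V6.5 on feeders in pluripotent medium with LIF, then on gelatin. The labels list the Sox2-eGFP reporter for the progenitor-derived cells and not for V6.5, give no number of iPS clones or of animals, and do not say whether paired libraries came from separate cultures, so the p-values below measure the spread between these libraries, which may be technical.

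Carriers work by several mechanisms. Facilitative carriers let a solute run down its gradient, sodium-coupled carriers use the sodium gradient to concentrate it, and antiporters exchange one solute for another. In neural tissue, members of the Slc1 and Slc6 families clear glutamate, GABA and glycine from around cells, and in dividing cells ASCT2 (Slc1a5) and LAT1 (Slc7a5) bring in glutamine and the essential neutral amino acids.

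Depth varied widely. Between 1150624 and 17286063 counts per library were assigned to a transcript model, and 26.5% to 86.6% of counted reads fell in no model, most of all in NPC replicate 1 and ES replicate 2. A further 6.00% to 35.6% were ambiguous between models and assigned to none, so overlapping models and genes with several models were counted without such reads. Replicates of a group correlated at 0.960 to 0.989 over the tested models, and Slc models took 0.783% to 0.916% of the assigned counts of a library. Summed markers separated the NPCs from the pluripotent groups, though single markers did not all do so. Summed over the 5 of 6 pluripotency markers in the table, levels were 5096 to 5119 CPM (counts per 1000000 assigned counts) in iPS 2i cells, 4602 to 5510 in iPS cells, 0 in NPCs, 3266 to 3604 in ES 2i cells and 5110 to 5385 in ES cells. Over 4 of 7 neural progenitor markers they were 87.7 to 96.8 CPM in iPS 2i cells, 269 to 302 in iPS cells, 3383 to 3943 in NPCs, 57.01 to 58.9 in ES 2i cells and 79.1 to 83.2 in ES cells. Ncan (mean of 1826 CPM) and Olig2 (1743 CPM) made up most of the NPC sum, while Nes had a mean of 3.70 CPM there. Sox1 was higher in iPS cells (mean of 255 CPM) than in NPCs (90.9 CPM). The similar pluripotency sums of iPS and ES cells hid single markers that differed. Mean Pou5f1 was 3405 CPM in iPS and 1139 CPM in ES cells. Means were lower in iPS than in ES cells for Dppa5a (1087 against 2572 CPM), Tdh (384 against 1299 CPM) and Utf1 (180 against 233 CPM). The pluripotency marker Esrrb had 0 and 0.681 CPM in iPS cells, against 4.43 and 4.21 CPM in ES cells. Markers of fibroblasts (6 of 9 in the table) summed to 907 to 921 CPM in iPS 2i cells, 2744 to 2945 in iPS cells, 74.5 to 105 in NPCs, 438 to 449 in ES 2i cells and 1202 to 1391 in ES cells. The sum was thus highest in the iPS cells without 2i, where Acta2 (mean of 1618 CPM) and Tagln (707 CPM) made up most of it. Col1a1 (224 CPM) and Col1a2 (140 CPM) were also highest there. Col3a1 was highest in iPS 2i cells (229 CPM) and Thy1 in NPCs (68.4 CPM). Markers of neurons (2 of 6) summed to 526 to 553 CPM in iPS 2i cells, 1094 to 1309.99 in iPS cells, 35.2 to 36.5 in NPCs, 425 to 459.7 in ES 2i cells and 358 to 411 in ES cells, and those of trophoblast (3 of 4) to 57.03 to 63.3, 705 to 889.9, 0, 37.1 to 38.9 and 309.9 to 345.5 CPM in the same order of groups. Summed markers of astrocytes (1 of 5), oligodendrocytes (1 of 6), endothelium (1 of 4) and primitive endoderm (2 of 4) stayed under 10 CPM in every library, and no microglial marker of 5 was in the table. In bulk RNA, fewer cells of a type and less RNA per cell cannot be told apart.

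After the filter on low counts, 139 of the 150 Slc genes were tested. The other 11 reached no more than 3.48 CPM in any library. CPM values are scaled by the trimmed mean of M values (TMM), and a gene was called at an adjusted p under 0.05 in edgeR's quasi-likelihood test, with Benjamini-Hochberg adjustment over all 11031 tested models. Changes are log2 values with their standard error. Levels of different genes are not compared, since the files hold no transcript lengths.

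Most Slc genes differed between cell types. The group with the highest mean level was NPC for 45 of the 139 genes (32.4%, against 28.1% of all tested models), iPS for 33, ES 2i for 27, ES for 18 and iPS 2i for 16. Between a gene's highest and lowest group mean the median gap was 2.14 on the log2 scale, against 1.73 over all tested models. The gap was under 2-fold for 23 genes (16.5%, against 20.7% of all tested models). Chosen by these values, the smallest gaps belonged to Slc35e3 with 0.39, Slc25a17 with 0.45, Slc30a7 with 0.48 and Slc25a5 with 0.53. Slc25a5, the adenine nucleotide exchanger ANT2 of the inner mitochondrial membrane, had 1503 and 1553 CPM in iPS 2i cells, 1261 and 1180 in iPS cells, 1673 and 1811 in NPCs, 1220 and 1191 in ES 2i cells and 1251 and 1201 in ES cells.

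**Figure D1:**
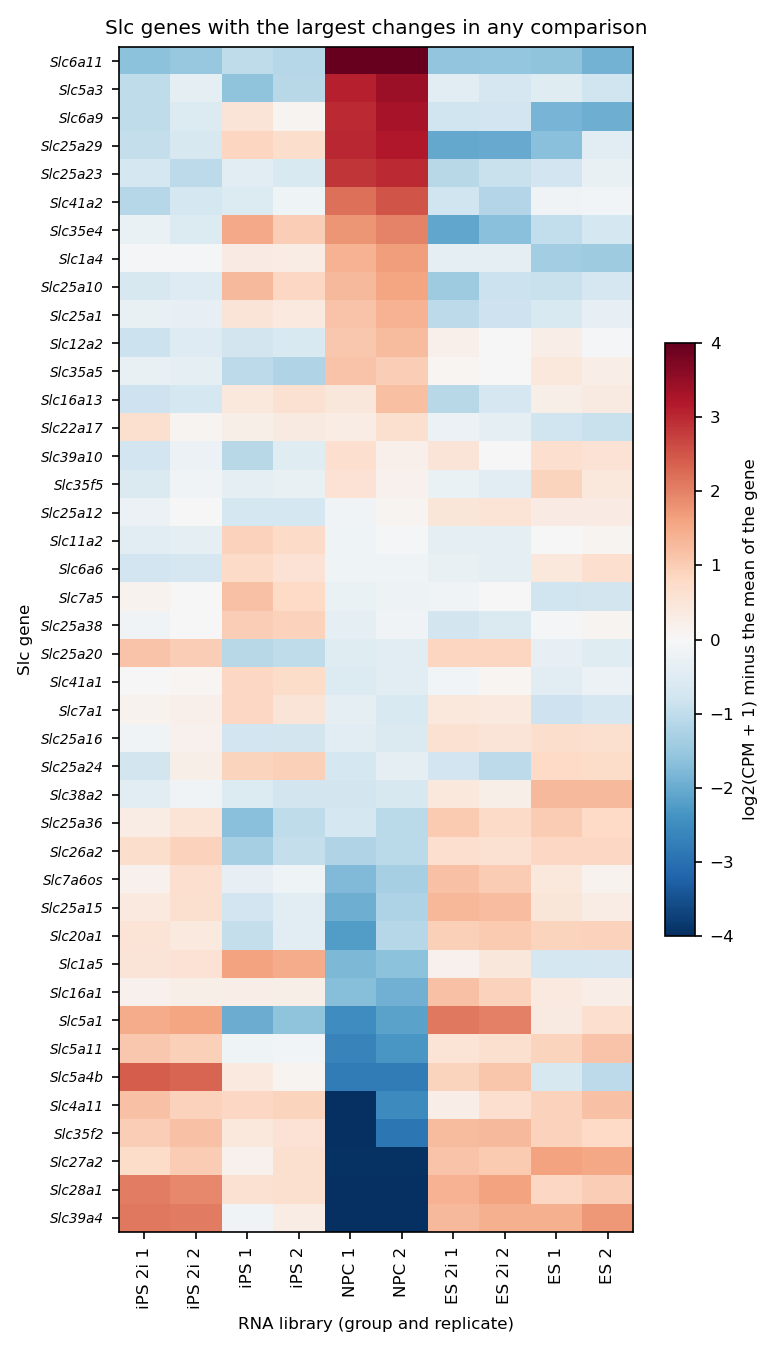
Heat map of 42 Slc genes with the largest called changes in any comparison, among those with a mean log2 CPM of at least 3; each column is a library (iPS 2i, iPS, NPC, ES 2i and ES, 2 of each) and colour gives log2(CPM + 1) minus the mean of the gene, clipped at 4 either way. The NPC columns stand apart in both directions, with Slc6a11 and Slc5a3 high and Slc39a4 and Slc28a1 at the bottom of the scale.

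The NPCs were set against ES cells to ask which carriers mark the neural progenitor state. Of the 139 Slc genes, 45 rose and 48 fell in NPCs, 66.9% in all, where 61.0% of all tested models were called, 27.3% higher and 33.7% lower. The median size of the change was 1.21 for Slc genes and 1.07 for all tested models. At 2-fold or more, 32 were higher and 40 lower, 23.02% and 28.8% of those tested, against 21.2% and 26.1% of all tested models.

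Carriers of neurotransmitters and their relatives were among the named genes with the largest rises. Slc6a11 (chr6:114081235-114199880, mm9), the GABA carrier GAT3, had 203 and 265 CPM in NPCs, against 0.225 and 0 CPM in ES cells. Every NPC library was far above every library of the other 4 groups, whose highest value was 0.825 CPM in iPS cells. The change against ES cells was 9.13 ± 0.28 (edgeR adjusted p = 2.41e-22), a fitted value that depends on the prior count because ES libraries held at most a few counts. Slc6a9, the glycine carrier GlyT1, had 87.1 and 107 CPM in NPCs, against 2.02 and 1.84 CPM in ES cells. That was 50.3-fold higher (5.48 ± 0.26, edgeR adjusted p = 6.49e-18). Slc1a3, the glial glutamate carrier GLAST, had 9.21 and 10.7 CPM in NPCs, against 1.01 and 0.79 CPM in ES cells (3.12 ± 0.45, edgeR adjusted p = 4.65e-07). In the opposite direction, Slc6a6, the taurine carrier, fell to 207 and 207 CPM in NPCs, against 315 and 375 CPM in ES cells (-0.74 ± 0.13, edgeR adjusted p = 1.81e-05). Of the 6 tested carriers of neurotransmitters, creatine, taurine and glycine, 3 rose and 2 fell.

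Carriers of other substrates also rose. Slc5a3, a sodium-coupled myo-inositol carrier, had 95.4 and 119 CPM in NPCs, against 7.07 and 5.53 CPM in ES cells (3.99 ± 0.23, edgeR adjusted p = 1.47e-15). Its model overlaps that of Mrps6, and reads that fit more than 1 model were counted as ambiguous and assigned to neither. Slc25a23, a calcium-regulated carrier of ATP-Mg and phosphate in mitochondria, had 185 and 204 CPM in NPCs, against 14.3 and 20.01 CPM in ES cells, 11.3-fold higher (3.57 ± 0.18, edgeR adjusted p = 6.93e-17), while its other, less counted model was at 0.15 (edgeR adjusted p = 0.854). Slc25a29, a mitochondrial carrier of basic amino acids, had 59.4 and 67.5 CPM in NPCs, against 1.35 and 4.48 CPM in ES cells (4.77 ± 0.32, edgeR adjusted p = 3.09e-14). The ES libraries themselves differed for this gene, and without ES replicate 1 the change was 3.71. Slc1a4, the neutral amino acid exchanger ASCT1, had 185 and 224 CPM in NPCs, against 25.9 and 25.02 CPM in ES cells, 8.03-fold higher (3.00 ± 0.15, edgeR adjusted p = 2.47e-17). Slc25a1, which exports citrate from mitochondria, rose by 1.74 ± 0.14 (edgeR adjusted p = 2.51e-12), and Slc46a1, the proton-coupled folate carrier, by 1.89 ± 0.17 (edgeR adjusted p = 4.96e-11).

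Several carriers best known from intestine, liver or kidney had no count in the NPC libraries and were present in every pluripotent library. Slc39a4 (chr15:76442813-76447282, mm9), the zinc importer ZIP4, had no count in either NPC library, against 91.6 and 112 CPM in ES cells. Set against the floor of 3 counts per library, NPCs were at least 60.2-fold lower (edgeR adjusted p = 2.33e-17). Slc28a1, the concentrative nucleoside carrier CNT1, had no count in NPCs, against 55.97 and 62.7 CPM in ES cells, at least 35.1-fold lower (edgeR adjusted p = 4.64e-16). Slc27a2, a fatty acid carrier and acyl-CoA synthetase, had no count in NPCs, against 46.8 and 45.03 CPM in ES cells, at least 27.2-fold lower (edgeR adjusted p = 3.14e-14). The 3 counts of the floor correspond to 2.51 CPM in NPC replicate 1 and 0.869 CPM in replicate 2. Slc35f2 and Slc4a11, a relative of the bicarbonate carriers, were at 0 in NPC replicate 1 and 2.32 CPM in replicate 2, against 45.4 and 41.9 CPM for Slc35f2 and 35.3 and 42.9 CPM for Slc4a11 in ES cells. The change of Slc35f2 was -4.51, or -7.62 without NPC replicate 2. That of Slc4a11 was -4.32, or -7.43 without that library. Carriers with many counts in every group also fell. Slc16a1, the lactate and pyruvate carrier MCT1, had 111 and 96.5 CPM in NPCs, against 484 and 443 CPM in ES cells, 4.46-fold lower (-2.17 ± 0.14, edgeR adjusted p = 2.83e-14). Slc25a3, the mitochondrial phosphate carrier, fell by 0.95 on the log2 scale (edgeR adjusted p = 1.99e-07).

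**Figure D2:**
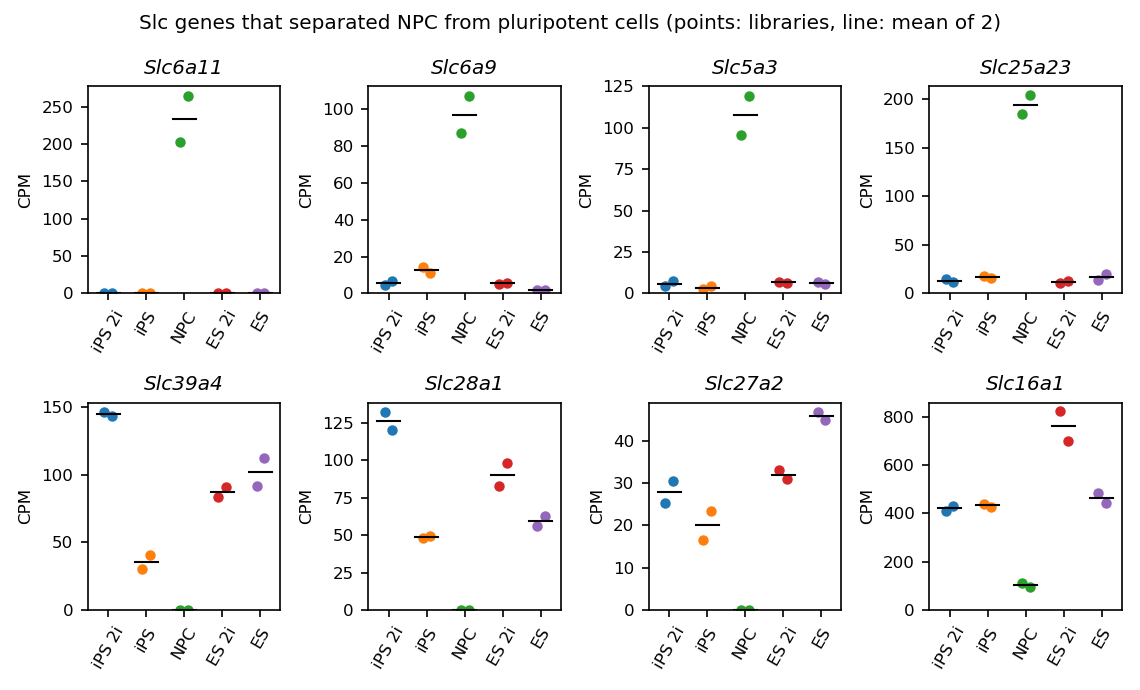
CPM of the selected Slc genes in each library (points) with the mean of the 2 libraries (line), for iPS 2i, iPS, NPC, ES 2i and ES. Slc6a11, Slc6a9, Slc5a3 and Slc25a23 are highest in both NPC libraries, whereas Slc39a4 and Slc28a1 are at 0 there.

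The comparison of iPS cells with the NPCs they were derived from asked how far these patterns were turned over in reprogramming. Here 45 Slc genes rose and 37 fell in iPS cells, 58.99% of the 139, where 51.3% of all tested models were called, 29.3% higher and 22.0% lower. Comparisons with NPC or ES share the libraries of those groups, so each gene's values are given side by side. Slc6a11 fell to 0.825 and 0.681 CPM in iPS cells, against 203 and 265 CPM in NPCs, 311-fold lower (edgeR adjusted p = 3.21e-21). Slc39a4 reached 30.3 and 40.7 CPM in iPS cells, against no count in NPCs (edgeR adjusted p = 1.61e-13). Slc28a1 reached 48.04 and 49.2 CPM in iPS cells, at least 28.8-fold above NPCs (edgeR adjusted p = 3.45e-15), and did not pass the test against ES cells (-0.27, edgeR adjusted p = 0.122). Slc16a1 reached 438 and 428 CPM in iPS cells (2.07 ± 0.14 over NPCs, edgeR adjusted p = 1.27e-13), and its difference from ES cells was -0.10 with an edgeR adjusted p of 0.533.

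Other carriers stood in iPS cells between the NPC and ES levels. Slc6a9 had 14.6 and 10.9 CPM in iPS cells, 6.61-fold above ES cells (2.54 ± 0.28, edgeR adjusted p = 3.6e-09) and 2.94 ± 0.22 log2 units under NPCs. Slc1a4 had 87.8 and 84.6 CPM in iPS cells, 3.39-fold above ES cells (1.74 ± 0.15, edgeR adjusted p = 1.67e-11). Slc25a10, the mitochondrial dicarboxylate carrier, had 135 and 97.5 CPM in iPS cells, against 28.5 and 33.7 CPM in ES cells, 3.73-fold higher (1.92 ± 0.18, edgeR adjusted p = 1.92e-10). In NPCs it had 136 and 162 CPM, so that the iPS libraries lay closer to NPCs than to ES cells. The difference of Slc25a10 between iPS cells and NPCs did not pass the test (-0.38, edgeR adjusted p = 0.0678). Between iPS and ES cells as a whole, 45 Slc genes rose and 38 fell in iPS cells, 59.7% of those tested, where 52.9% of all tested models were called, 25.9% higher and 26.9% lower. The fibroblast marker sum was 2744 to 2945 CPM in iPS cells and 1202 to 1391 CPM in ES cells, and its part in these differences was not tested.

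Amino acid carriers took part in the comparison of iPS with ES cells in both directions. Slc1a5 (chr7:17366695-17383623, mm9), the glutamine exchanger ASCT2, had 435 and 398 CPM in iPS cells, against 86.4 and 87.96 CPM in ES cells. The groups did not overlap and iPS cells were 4.78-fold higher (2.26 ± 0.13, edgeR adjusted p = 8.16e-15). NPCs had 40.2 and 44.6 CPM, so that iPS cells lay 9.83-fold above them as well (3.27 ± 0.16, edgeR adjusted p = 1.03e-17). Slc7a5 (chr8:124405046-124431586, mm9), the light chain of LAT1, whose model overlaps one named 4F2 lc, had 1035 and 795 CPM in iPS cells, against 259 and 275 CPM in ES cells (1.78 ± 0.14, edgeR adjusted p = 3.29e-12). Slc7a1 (chr5:149138986-149211480, mm9), the arginine and lysine carrier CAT1, had 235 and 192 CPM in iPS cells, against 73.8 and 83.5 CPM in ES cells, 2.71-fold higher (1.45 ± 0.14, edgeR adjusted p = 2.41e-10). Slc3a2, the heavy chain that carries LAT1 to the membrane, rose by 0.99 ± 0.31 at single-digit CPM (edgeR adjusted p = 0.00698), a call that was lost without ES replicate 1 (0.74); its other model was at 0.16 (edgeR adjusted p = 0.769). In the other direction, Slc38a2 (chr15:96517823-96530129, mm9), the sodium-coupled neutral amino acid carrier SNAT2, had 192 and 169 CPM in iPS cells, against 700 and 695 CPM in ES cells, 3.86-fold lower (-1.95 ± 0.14, edgeR adjusted p = 3.48e-13). For its neighbour Slc38a1, a carrier of the same type, the model with the highest mean count fell by 1.95 ± 0.35 in iPS cells at levels under 7 CPM, but its 2 other tested models were at 0.11 (edgeR adjusted p = 0.796) and 0.14 (edgeR adjusted p = 0.775), so the fall was seen in 1 of 3 models and not shown for the gene. Of the 12 tested neutral amino acid carriers, 5 rose and 4 fell, and of the 4 cationic ones 2 rose and none fell.

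**Figure D3:**
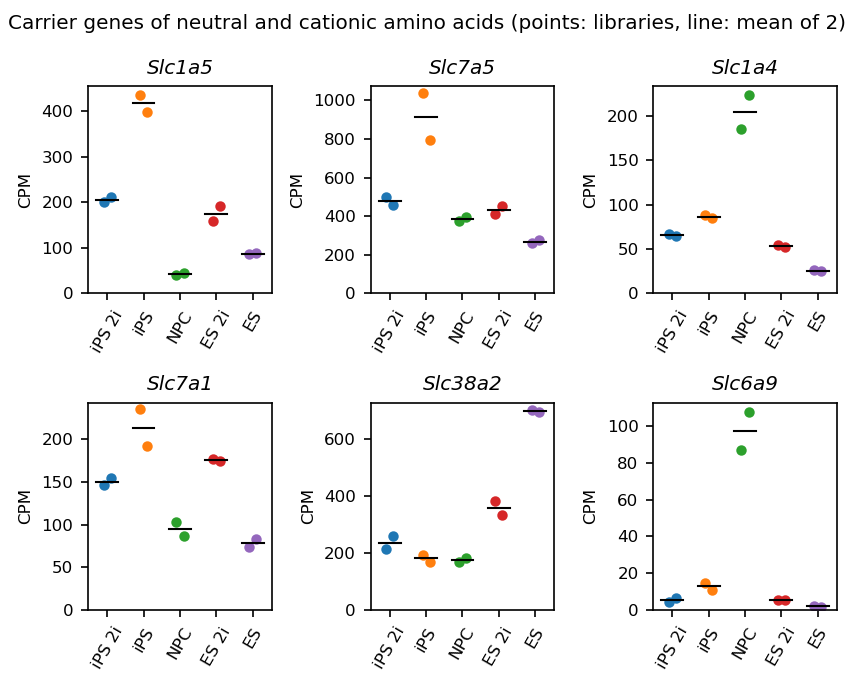
CPM of 6 amino acid carrier genes in each library (points) with the mean of the 2 libraries (line), for iPS 2i, iPS, NPC, ES 2i and ES. Slc1a5, Slc7a5 and Slc7a1 are highest in both iPS libraries, Slc38a2 is highest in both ES libraries, and Slc6a9 and Slc1a4 are highest in both NPC libraries.

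Several amino acid importers are known targets of ATF4, the transcription factor of the amino acid starvation response, which binds composite elements of the form TGATGNAA. The promoters of 4 carriers are shown for this reason, 250 bases before to 30 after the RefSeq start (GRCm38.p6), each written 5′ to 3′ on the strand of the gene, with matches to TGATGNAA or its reverse complement TTNCATCA in capitals. In the search, which used both strands and 50 bases after the start, the letters were found in 6 of the 117 Slc genes matched to a promoter (5.13%) and in 1219 of 27025 genes (4.51%). The 6 were Slc1a4, Slc26a10, Slc50a1, Slc7a11, Slc7a7 and Slc9a9. Slc1a4 held 1 match at its start, Slc7a11 held 1 match on each strand, and the windows of Slc7a1 (the more upstream of its 2 entries) and Slc38a2 held none. Elements outside these windows were not searched for, so a window without a match does not show that the gene lacks one. No promoter entry was used for Slc1a5 and Slc7a5.
Slc1a4, chr11:20332684-20332963, minus strand: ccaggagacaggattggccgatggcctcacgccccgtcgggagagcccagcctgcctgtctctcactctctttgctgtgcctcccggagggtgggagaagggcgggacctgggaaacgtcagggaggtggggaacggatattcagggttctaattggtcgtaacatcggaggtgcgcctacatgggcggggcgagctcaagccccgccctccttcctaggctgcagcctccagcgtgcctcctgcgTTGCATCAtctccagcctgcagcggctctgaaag
Slc7a11, chr3:50443584-50443863, minus strand: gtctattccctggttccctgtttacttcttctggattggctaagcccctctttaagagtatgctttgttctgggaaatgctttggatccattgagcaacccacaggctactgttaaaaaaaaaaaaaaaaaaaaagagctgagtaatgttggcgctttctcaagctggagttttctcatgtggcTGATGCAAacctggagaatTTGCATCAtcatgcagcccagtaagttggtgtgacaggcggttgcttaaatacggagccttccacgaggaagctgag
Slc7a1, chr5:148399875-148400154, minus strand: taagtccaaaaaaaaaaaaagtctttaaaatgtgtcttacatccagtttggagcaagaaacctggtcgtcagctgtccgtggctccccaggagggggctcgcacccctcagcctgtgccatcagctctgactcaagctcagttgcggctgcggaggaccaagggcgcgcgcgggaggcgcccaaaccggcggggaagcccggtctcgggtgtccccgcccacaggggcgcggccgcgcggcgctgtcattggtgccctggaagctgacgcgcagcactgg
Slc38a2, chr15:96699699-96699978, minus strand: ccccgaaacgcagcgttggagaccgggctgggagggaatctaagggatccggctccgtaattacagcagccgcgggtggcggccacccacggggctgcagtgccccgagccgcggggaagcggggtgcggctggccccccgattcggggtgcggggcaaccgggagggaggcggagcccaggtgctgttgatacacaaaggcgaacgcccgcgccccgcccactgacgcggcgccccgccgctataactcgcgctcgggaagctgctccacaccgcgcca

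Slc7a11, the cystine and glutamate antiporter, had 1.86 and 2.55 CPM in iPS cells, against 0.168 and 0 CPM in ES cells (edgeR adjusted p = 5.39e-05; no fold is given against 3 counts and 0). It stayed higher in 2i, with 3.48 and 3.25 CPM in iPS 2i cells, against 0.627 and 0.325 CPM in ES 2i cells, 7.08-fold (2.32 ± 0.42, edgeR adjusted p = 0.000104). Atf4 and its targets other than carriers formed a list chosen with earlier results of these data known. Of the 17 measured, 12 rose in iPS over ES cells and none fell, with a median of 0.81. Of all tested models, 25.9% rose and 26.9% fell. Atf4 itself did not pass (0.17, edgeR adjusted p = 0.288). Chac1, a glutathione-degrading enzyme, rose by 2.15 (edgeR adjusted p = 3.13e-09) and Phgdh, the entry enzyme of serine synthesis, by 1.65. In NPC over ES cells 9 of the list rose and 5 fell, where 27.3% of all tested models rose and 33.7% fell. In iPS 2i over ES 2i cells 7 rose and 2 fell, where 13.7% of all tested models rose and 11.6% fell. In ES 2i over ES cells, 9 of these genes rose and 2 fell, where 11.3% of all tested models rose and 13.2% fell. In iPS 2i over iPS cells none rose and 4 fell, Phgdh by 1.08 on the log2 scale, where 21.1% of all tested models rose and 21.5% fell.

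The effect of 2i medium was measured in both pluripotent cell types. In ES 2i over ES cells 21 rose and 23 fell, 31.7% of the 139, where 24.5% of all tested models were called, 11.3% higher and 13.2% lower. In iPS 2i over iPS cells 35 rose and 40 fell, 54.0%, where 42.6% of all tested models were called, 21.1% higher and 21.5% lower. These comparisons share no libraries. Of the genes that rose, 11 did so in both, 52.4% of the ES list and 31.4% of the iPS list, against 48.8% and 26.2% over all tested models. Of those that fell, 13 did so in both, 56.5% of the ES list and 32.5% of the iPS list, against 49.7% and 30.4% over all tested models. Of the genes called higher in ES 2i cells 5 were called lower in iPS 2i cells, and of those called lower in ES 2i cells 2 were called higher in iPS 2i cells. Over all tested models these were 147 of 1249 and 188 of 1456. With limma on the authors' log2 table the counts of called Slc genes were lower, 23 for ES 2i over ES (60.9% of them higher) and 49 for iPS 2i over iPS.

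Carriers that rose in 2i in both cell types included sugar carriers and mitochondrial carriers. Slc5a1, the sodium-coupled glucose carrier SGLT1, had 14.96 and 16.03 CPM in iPS 2i cells, against 0.412 and 0.851 CPM in iPS cells. In ES 2i cells it had 23.1 and 21.9 CPM, against 6.29 and 7.9 CPM in ES cells. The rise was 4.15 ± 0.35 in iPS (edgeR adjusted p = 3.21e-11) and 1.69 ± 0.22 in ES cells (edgeR adjusted p = 3.86e-07). Slc5a4b, of the same family, rose by 2.24 ± 0.23 in iPS (edgeR adjusted p = 3.47e-09) and 1.93 ± 0.24 in ES cells (edgeR adjusted p = 2.56e-07). Slc25a20, the mitochondrial carnitine and acylcarnitine exchanger, had 314 and 283 CPM in iPS 2i cells, against 64.7 and 70.1 CPM in iPS cells, 4.42-fold higher (2.14 ± 0.13, edgeR adjusted p = 3.63e-14). In ES 2i cells it had 261 and 261 CPM, against 114 and 100.3 CPM in ES cells, 2.43-fold higher (1.27 ± 0.13, edgeR adjusted p = 2.66e-09), and in 2i the iPS and ES libraries did not pass the test of a difference (0.19, edgeR adjusted p = 0.256). Slc25a15, the mitochondrial ornithine carrier, rose by 1.12 ± 0.16 in iPS and 0.91 ± 0.15 in ES cells. Of the 8 tested carriers of sugars, inositol and other sodium-coupled solutes, 5 rose and 3 fell in iPS 2i, and 2 rose and 2 fell in ES 2i cells. Over all tested models, 21.1% rose and 21.5% fell in iPS 2i cells, and 11.3% rose and 13.2% fell in ES 2i cells.

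Other carriers fell in 2i. Slc5a5, the sodium iodide symporter, named here after its values were seen, had 2.87 and 3.86 CPM in iPS 2i cells, against 11.96 and 13.3 CPM in iPS cells (-1.80 ± 0.29, edgeR adjusted p = 6.71e-06). In ES 2i cells it had 2.13 and 1.95 CPM, against 10.7 and 11.3 CPM in ES cells (-2.29 ± 0.27, edgeR adjusted p = 7.48e-08). The taurine carrier Slc6a6 had 139 and 147 CPM in iPS 2i cells, against 404 and 354 CPM in iPS cells (-1.40 ± 0.13, edgeR adjusted p = 2.96e-10). In ES 2i cells it had 191 and 183 CPM, against 315 and 375 CPM in ES cells (-0.88 ± 0.13, edgeR adjusted p = 2.78e-06). Both carriers thus fell in both cell types, with no overlap between groups, although the other, rarely counted model of Slc6a6 did not pass in either (0.39 in iPS and -0.10 in ES cells). Slc11a2, the divalent metal carrier DMT1, had 33.4 and 34.3 CPM in iPS 2i cells, against 86.8 and 78.3 CPM in iPS cells (-1.28 ± 0.15, edgeR adjusted p = 2.61e-08). Its fall in ES 2i over ES cells was smaller (-0.42, edgeR adjusted p = 0.0301). That call did not hold without ES replicate 1 (-0.49) or ES replicate 2 (-0.38). The 2 responses of Slc11a2 differed by -0.86 (edgeR adjusted p = 0.00219 for the interaction). Slc40a1, the iron exporter ferroportin, had 0.877 and 0.844 CPM in ES 2i cells, against 8.76 and 6.58 CPM in ES cells, 8.91-fold lower (-2.89 ± 0.34, edgeR adjusted p = 9.46e-08). In iPS 2i cells it had 0.615 and 1.32 CPM, against 2.89 and 2.04 CPM in iPS cells, and did not pass the test (-1.04, edgeR adjusted p = 0.0631).

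Of the 16 tested neutral and cationic amino acid carriers, the responses to 2i of iPS and ES cells differed in the test for 7, higher in iPS cells for 2 and lower for 5. Of all tested models, 27.3% were called in this test, 15.1% higher and 12.2% lower. For 5 of the 7 the calls in the separate comparisons ran in opposite directions. That share was not computed over all tested models with a called difference. Over all tested models, 147 of the 1249 called higher in ES 2i cells were called lower in iPS 2i cells. Of the 1456 called lower in ES 2i cells, 188 were called higher in iPS 2i cells. Slc1a5 had 201 and 211 CPM in iPS 2i cells, 2.02-fold under iPS cells (-1.01 ± 0.13, edgeR adjusted p = 9.78e-08). In ES 2i cells it had 158 and 191 CPM, 2.01-fold over ES cells (1.00 ± 0.13, edgeR adjusted p = 3.82e-07). The responses differed by -2.02 ± 0.18 (edgeR adjusted p = 9.85e-10 for the interaction), and iPS 2i and ES 2i cells did not pass the test of a difference (0.24 ± 0.13, edgeR adjusted p = 0.169). Slc7a5 had 501 and 457 CPM in iPS 2i cells, 1.91-fold under iPS cells (-0.93 ± 0.13, edgeR adjusted p = 1.09e-06), and 413 and 455 CPM in ES 2i cells, 1.63-fold over ES cells (0.70 ± 0.13, edgeR adjusted p = 0.00016). Slc7a1 had 146 and 155 CPM in iPS 2i cells (-0.50 ± 0.13 against iPS) and 177 and 175 CPM in ES 2i cells (1.17 ± 0.13 against ES). Slc38a2 ran the other way, with 212 and 258 CPM in iPS 2i cells (0.38 ± 0.13 against iPS) and 380.2 and 333 CPM in ES 2i cells (-0.97 ± 0.13 against ES). The iPS responses of Slc7a1, Slc38a2 and Slc1a4 (-0.39 ± 0.14) were small and their calls rested on single libraries: without iPS replicate 1 they were -0.35, 0.48 and -0.36 and none passed. Slc7a1 also failed without iPS 2i replicate 1 (-0.45), Slc38a2 without iPS replicate 2 (0.30) or iPS 2i replicate 2 (0.28), and Slc1a4 without iPS replicate 2 (-0.41), iPS 2i replicate 1 (-0.39) or 2 (-0.33) or NPC replicate 2 (-0.32). The fibroblast marker sum was lower in 2i in both cell types, a fall mostly of Acta2 and Tagln. Mean Acta2 went from 755 to 159 CPM in ES cells and from 1618 to 366 CPM in iPS cells. Col3a1 rose in 2i in both, from 17.4 to 116 CPM in ES cells and from 108 to 229 CPM in iPS cells. Col1a1 and Col1a2 were lower in iPS 2i cells but not in ES 2i cells. Slc1a5, Slc7a5, Slc7a1 and Slc1a4 rose in ES 2i cells. The part of fibroblast markers in the iPS responses was not tested.

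**Figure D4:**
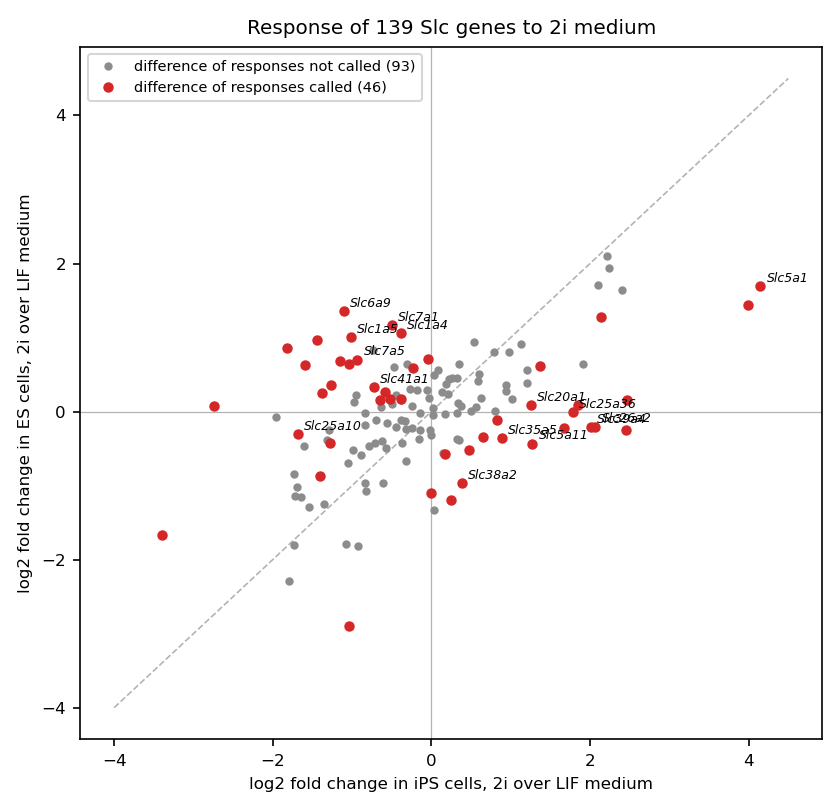
Each point is 1 of the 139 tested Slc genes, with the log2 change of iPS 2i over iPS cells on the x axis and of ES 2i over ES cells on the y axis; the dashed line marks equal responses. The 46 red genes passed the test of a difference between the responses and the 93 grey ones did not; Slc1a5, Slc7a5 and Slc7a1 lie left of 0 and above it.

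A difference between the 2i responses passed the test for 46 Slc genes (22 higher and 24 lower in iPS), 33.1%, where 27.3% of all tested models were called, 15.1% higher and 12.2% lower. With limma on the authors' log2 table it passed for 15 Slc genes, 6 higher and 9 lower. Slc39a4 had 146 and 143 CPM in iPS 2i cells, against 30.3 and 40.7 CPM in iPS cells (2.01 ± 0.16, edgeR adjusted p = 9.29e-12). In ES 2i cells it had 83.5 and 90.9 CPM, against 91.6 and 112 CPM in ES cells (-0.21, edgeR adjusted p = 0.311). Slc26a2, a sulfate carrier, had 27.7 and 32.5 CPM in iPS 2i cells, against 5.98 and 8.00 CPM in iPS cells (2.07 ± 0.21, edgeR adjusted p = 2.19e-09), and its response differed from that of ES cells by 2.27 ± 0.27 (edgeR adjusted p = 1.95e-07).

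Between iPS 2i and ES 2i cells 24 Slc genes rose and 19 fell in iPS 2i cells, 30.9%, where 25.3% of all tested models were called, 13.7% higher and 11.6% lower. That count of 43 rested on the libraries: it was 17 without ES 2i replicate 1 and 18 without iPS 2i replicate 1, of which 72.2% were higher, and it was 6 with limma on the authors' log2 table. At 2-fold or more, 10 were higher and 4 lower, 7.19% and 2.88% of those tested, against 5.21% and 3.09% of all tested models. Slc35e4, an orphan relative of nucleotide sugar carriers, had 38.1 and 31.2 CPM in iPS 2i cells, against 10.1 and 13.6 CPM in ES 2i cells (1.52 ± 0.19 on the log2 scale). Slc5a4b had 35.9 and 34.1 CPM in iPS 2i cells, against 11.8 and 13.96 CPM in ES 2i cells (1.42 ± 0.20, edgeR adjusted p = 2.92e-06). Slc16a1 had 410.4 and 432 CPM in iPS 2i cells, against 822 and 699.5 CPM in ES 2i cells (-0.85 ± 0.13, edgeR adjusted p = 8.52e-06).

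Each of the larger substrate classes held genes that rose and genes that fell. Of the 27 tested mitochondrial carriers 9 rose and 9 fell in NPC over ES cells, 8 rose and 8 fell in iPS over ES cells, 10 rose and 9 fell in iPS 2i over iPS cells, and 4 rose and 4 fell in ES 2i over ES cells. Of the 21 carriers of inorganic ions 8 rose and 7 fell in NPC over ES cells. Slc12a2, the sodium-potassium-chloride cotransporter NKCC1, had 87.1 and 99.7 CPM in NPCs, against 49.3 and 39.2 CPM in ES cells (1.06 ± 0.17, edgeR adjusted p = 2.41e-06). Of the 18 carriers of nucleosides and nucleotide sugars 7 rose and 4 fell in NPC over ES cells, and 3 rose and 7 fell in iPS over NPC. Of the 14 metal carriers 3 rose and 6 fell in NPC over ES cells, 5 rose and 7 fell in iPS over ES cells, and 6 rose and 3 fell in iPS over NPC. Slc41a1, a magnesium carrier, had 235 and 221 CPM in iPS cells, against 98.5 and 113 CPM in ES cells (1.12 ± 0.13, edgeR adjusted p = 1.49e-08). Of the 10 carriers of organic ions, peptides, phosphate sugars and heme 6 rose and 1 fell in iPS over ES cells. Of the 7 carriers of monocarboxylates and dicarboxylates 2 rose and 1 fell in NPC over ES cells, and 3 rose and 2 fell in ES 2i over ES cells. The smaller classes in NPC over ES cells gave 1 rise and 2 falls among 4 lipid carriers, 1 rise and 1 fall among 3 vitamin carriers, and 2 rises among 3 carriers of acidic amino acids and cystine. Of 2 tested genes that share the name but are not carriers themselves, 1 rose and 1 fell. Of all tested models, 61.0% were called in NPC over ES, 51.3% in iPS over NPC, 52.9% in iPS over ES, 42.6% in iPS 2i over iPS and 24.5% in ES 2i over ES, and no test between classes was run.

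**Figure D5:**
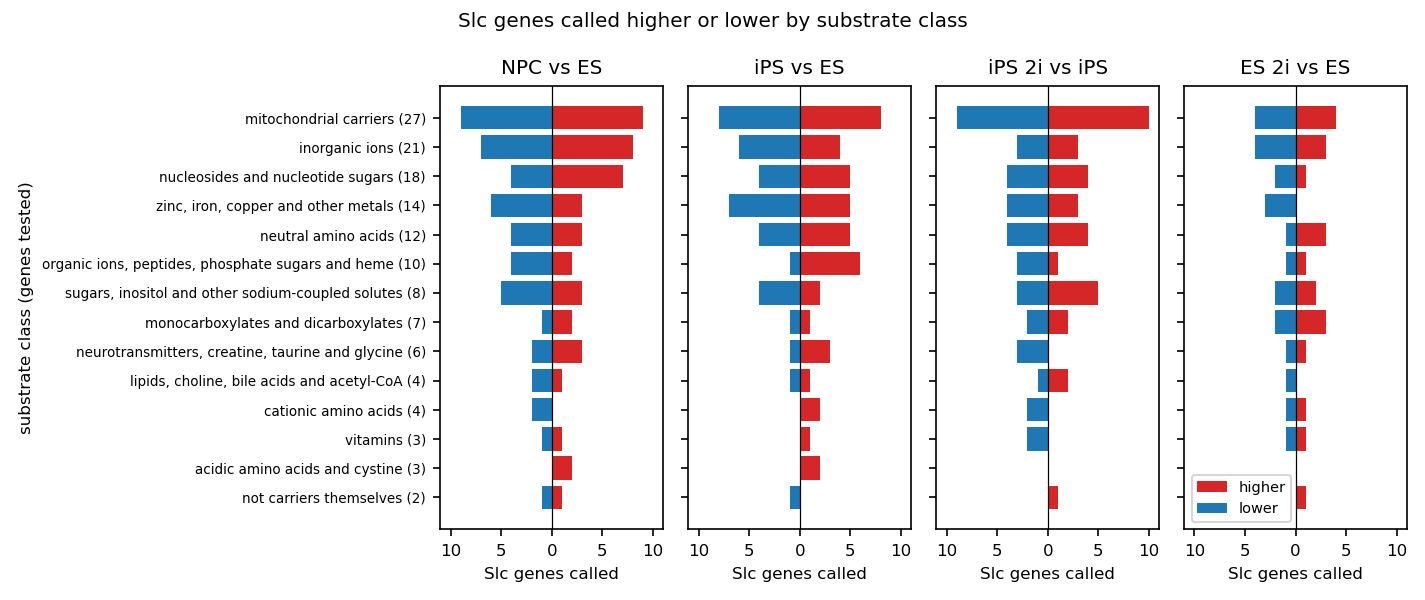
Number of tested Slc genes of each substrate class that rose (right of 0) or fell (left of 0) in 4 comparisons: NPC over ES, iPS over ES, iPS 2i over iPS and ES 2i over ES. Mitochondrial carriers give the largest counts, with 9 up and 9 down in NPC over ES and 10 up and 9 down in iPS 2i over iPS.

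Enzymes that act on the carried solutes were followed in lists that are not made of Slc genes. Of all tested models, 27.3% rose and 33.7% fell in NPC over ES cells, 21.1% rose and 21.5% fell in iPS 2i over iPS cells, and 11.3% rose and 13.2% fell in ES 2i over ES cells. Of 9 measured genes of threonine, glycine and folate metabolism, none rose and 8 fell in NPC over ES cells, among them Shmt1, the cytosolic serine hydroxymethyltransferase (-1.81), and Gldc, the glycine decarboxylase (-1.52), while the glycine carrier Slc6a9 rose. In iPS 2i over iPS cells 5 of the 9 rose and 1 fell, among them Tdh, the threonine dehydrogenase of pluripotent mouse cells (1.63). Of 7 measured genes of glutamate, glutamine and GABA metabolism, 2 rose and 4 fell in NPC over ES cells, and none rose and 4 fell in ES 2i over ES cells. Of 7 measured partner subunits and sodium pump genes, 1 rose and 4 fell in NPC over ES cells. Emb, embigin, a partner of monocarboxylate carriers, fell by 5.56 on the log2 scale beside the fall of Slc16a1. Bsg (0.81, edgeR adjusted p = 0.179) and Nptn (-0.18, edgeR adjusted p = 0.801), partner subunits of the same list, did not pass. Among the sodium pump subunits, Atp1b1 was at -3.35 and Atp1b2 at 3.30. Atp1b1 was about as low in iPS over ES cells (-3.25), where Atp1b2 was at -0.93.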

How the data were processed

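The authors deposited raw counts per transcript model for each RNA library, and a log2 expression table of the series; per the labels' protocols, 350 ng of total RNA was depleted of ribosomal RNA, made into stranded libraries and read for 75 cycles from each end. Per the submitters' processing notes, TopHat2 2.1.0, TopHat and HTSeq were used with the mm9 build, and the strand setting of the counting is not given in the sources used here. Every value of the deposited log2 table equals log2(count + 1) plus a constant of its library, within 0.001, so limma was run on these values as deposited and no further log was taken. Summary entries and spike-ins were left out of library sizes.

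Counts were tested with edgeR 4.0.16 in R 4.3.3 (TMM scaling, the group-wise low-count filter, prior count 2), in a quasi-likelihood fit of all 10 libraries with group as the only term and 5 residual degrees of freedom. The code was tested on simulated data. The alternatives used DESeq2 1.42.0, limma 3.58.1, other scalings, filters, thresholds and sample sets. Standard errors and p-values come from the spread between libraries. Floors cover counting error only, since reads carry no molecular identifiers. A fold is a ratio of mean CPM, and the floor is 3 counts per library. SD is not given beside pairs of values, as both are printed.

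The members, the substrate classes and the gene lists (cell type markers, Atf4 and its targets, threonine, glycine and folate metabolism, glutamate, glutamine and GABA metabolism, partner subunits and pumps, ABC transporters, Slco genes) were chosen with earlier results of these data known. Genes were named by a rule: in each comparison the 8 largest called rises and falls among members with a mean log2 CPM of at least 3, paralog pairs, a list of well-known carriers, and the highest member of each class. Some genes that the rule names are not reported here, though counts over all Slc genes include them. Of the 150 members, 17 overlap a model of another symbol and 17 have several models. Replicate numbers were not taken as pairs, since no label says that a number marks a shared culture or day.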

Additional observations from a re-analysis of the deposited data

Results flagged for a closer look

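The response to 2i differed between iPS and ES cells for 46 Slc genes, by an edgeR quasi-likelihood test of the difference itself. Listed here are 15 of them, taken from the largest differences among genes with a mean log2 CPM of at least 3. Each value is the log2 response of iPS cells minus that of ES cells. The response was higher in iPS cells for Slc5a1 with 2.45, Slc26a2 with 2.27, Slc39a4 with 2.22, Slc25a36 with 1.80, Slc5a11 with 1.71, Slc38a2 with 1.35, Slc35a5 with 1.24 and Slc20a1 with 1.16. It was lower for Slc6a9 with -2.46, Slc1a5 with -2.02, Slc7a1 with -1.67, Slc7a5 with -1.63, Slc1a4 with -1.45, Slc25a10 with -1.38 and Slc41a1 with -1.06. The call for Slc20a1 did not hold without iPS replicate 1 (0.93). Other named genes also passed with differences outside this list, among them Slc40a1 (1.85), Slc25a20 (0.87), Slc11a2 (-0.86), Slc16a1 (-0.75) and Slc6a6 (-0.52). Of these, Slc40a1 (1.56) and Slc6a6 (-0.40) did not hold without ES replicate 1. For Slc6a9, the glycine carrier, levels were 4.51 and 6.60 CPM in iPS 2i cells, against 14.6 and 10.9 CPM in iPS cells, and 5.39 and 5.52 CPM in ES 2i cells, against 2.02 and 1.84 CPM in ES cells.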

How the results depend on the processing

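Counts of called Slc genes depended most on the table, the threshold and single libraries. With limma on the authors' log2 table they were 23 for ES 2i against ES, 49 for iPS 2i against iPS, 6 for iPS 2i against ES 2i and 15 for the difference of responses. Asking for 2-fold gave 24, 47 and 14 for the first 3 of these, and an adjusted p under 0.01 gave 24 for iPS 2i against ES 2i. Leaving out 1 library at a time gave 73 to 97 for NPC against ES, 58 to 83 for iPS against NPC, 65 to 85 for iPS against ES, 34 to 46 for ES 2i against ES, 52 to 78 for iPS 2i against iPS, 17 to 45 for iPS 2i against ES 2i and 31 to 48 for the difference of responses. Deviations of same-numbered libraries correlated at -0.348 to 0.277 over 10 group pairs. ES with ES 2i (0.218), iPS with iPS 2i (0.277) and ES 2i with NPC (0.180) were above 0.1, and the first 2 of these are the group pairs of the 2i comparisons. With the replicate number as a block the counts were 89, 82, 80, 46, 77, 42 and 43 in the same order, and 5 calls of named genes were lost. DESeq2 gave 86, 77, 71, 37, 64, 34 and 37. The share of calls that were higher moved by over 10 points for ES 2i against ES (60.9% with the authors' table and 58.8% without ES 2i replicate 1, against 47.7%), for iPS 2i against ES 2i (33.3% with the authors' table, 44.4% with no filter, 71.4% at 2-fold, 72.2% without iPS 2i replicate 1 and 43.3% without iPS 2i replicate 2, against 55.8%) and for iPS against NPC (39.1% with a mean of at least 50 counts, against 54.9%). The median of all models moved by 0.21 for NPC against ES with the authors' table, and by -0.19 without NPC replicate 2. Of 4964 comparisons over 238 named results, 4538 kept direction and call, 425 kept direction and lost the call, and 1 turned: Slc38a1 in iPS 2i against iPS, at -0.043 with counts summed by symbol. The causes were not tested. NPC replicate 1, with 1150624 assigned counts, limits what can be seen at low levels in NPCs.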

Other observations

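ABC transporters are the ATP-driven counterparts of solute carriers. Of 15 measured, 7 rose and 5 fell in NPC over ES cells, 6 rose and 6 fell in iPS over ES cells, 2 rose and 3 fell in ES 2i over ES cells, and 6 rose and 5 fell in iPS 2i over iPS cells. Of all tested models, 61.0%, 52.9%, 24.5% and 42.6% were called in these comparisons, in the same order. Of 2 measured Slco genes, which encode organic anion carriers, 1 fell in NPC over ES cells and 1 rose in iPS over ES cells.

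Slc35d3, an orphan relative of nucleotide sugar carriers named here after its values were seen, had 35.9 and 26.4 CPM in iPS cells, against 1.63 and 1.58 CPM in ES cells (4.07 ± 0.35, edgeR adjusted p = 2.47e-11). In iPS 2i cells it had 3.89 and 4.77 CPM (-2.75 ± 0.31 against iPS cells, edgeR adjusted p = 1.48e-08).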
